A study of Mus musculus with 6 samples.

Results

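Zpbp2 and 9 genes that flank it on mouse chromosome 11 (Stard3, Pgap3, Grb7, Ikzf3, Ormdl3, Psmd3, Med24, Thra and Casc3) were compared between KO and WT lungs taken at ZT10. These 10 genes were taken by symbol from the mouse block that matches the human 17q12-q21 asthma region. They are 10 of the 47069 genes in the deposited count table, and 9 of them, all but Zpbp2, were among the 17037 genes with enough reads to be tested. KO mice carried the B6.129S7-Zpbp2tmZuk/Mmjax allele, which lacks the 5′ region of Zpbp2 with its exons 1 to 3, on a C57BL/6J background. WT mice were C57BL/6J animals of the same colony. The table holds 1 lung library per mouse, from KO4, KO5 and KO6 and from WT4, WT5 and WT6 (n = 3 for each genotype), all adult and kept in a light-dark cycle of 12 h and 12 h, and ZT10 is 10 h after lights on. KO mice carry at this locus both the deletion and whatever 129S7 DNA remained beside it, and the effects of the 2 cannot be told apart. Libraries of the ZT7 experiment were not used here.

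The human 17q12-q21 block is best known from genetic studies of childhood asthma, in which the same variants go with the RNA levels of several neighbouring genes, among them ORMDL3. Zpbp2 itself encodes a zona pellucida binding protein of the sperm acrosome. Its neighbours do unrelated work. Ormdl3 restrains sphingolipid synthesis, Ikzf3 is a transcription factor of lymphocytes, Grb7 is an adaptor of receptor tyrosine kinases, and the others serve sterol transport, GPI anchors, the proteasome, transcription, thyroid hormone and RNA.

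In the GRCm38 build, annotated with GENCODE release 21 for the mouse, the 10 genes run over 475.4 kb (chr11:98358368-98833814). Ikzf3 (ENSMUSG00000018168, chr11:98464902-98546031, minus strand) lies nearest to Zpbp2 (ENSMUSG00000017195, chr11:98551097-98558665, plus strand), with 5065 bp between them. On the other side Ormdl3 (ENSMUSG00000038150, chr11:98581256-98587368, minus strand) follows after 22590 bp. Before Ikzf3 stand Grb7 (ENSMUSG00000019312, chr11:98446394-98455373, plus strand), Pgap3 (ENSMUSG00000038208, chr11:98388677-98400490, minus strand) and Stard3 (ENSMUSG00000018167, chr11:98358368-98381112, plus strand). Beyond Ormdl3 stand Psmd3 (ENSMUSG00000017221, chr11:98682554-98695979, plus strand), Med24 (ENSMUSG00000017210, chr11:98704591-98729435, minus strand), Thra (ENSMUSG00000058756, chr11:98740638-98769006, plus strand) and Casc3 (ENSMUSG00000078676, chr11:98804905-98833814, plus strand). Casc3, the farthest, is 246239 bp away from Zpbp2.

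The 5′ end of Zpbp2 is shown because it is what the KO allele loses, wholly or in part. Exons 2 and 3 are those of the transcript Zpbp2-201, which has 8 exons, and are read 5′ to 3′ on the plus strand of GRCm38 (chr11:98551443-98551508 and chr11:98552458-98552583). The promoter of Zpbp2 (chr11:98550847-98551146, plus strand) and that of Ormdl3 (chr11:98587196-98587495, minus strand), the gene whose regulation the study asked about, are from RefSeq for GRCm38.p6 and run from 250 bases before the start that RefSeq gives to 50 bases after it. For Ormdl3 that start lies 123 bp inside the gene as GENCODE places it, and for Zpbp2 the 2 starts are the same. Capitals mark GGGCGG, the GC box, on either strand (CCGCCC where it lies on the other strand) and TGACGTCA, the cAMP response element, which reads the same on both strands.
Zpbp2 exon 2: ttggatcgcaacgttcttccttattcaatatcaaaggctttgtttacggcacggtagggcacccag
Zpbp2 exon 3: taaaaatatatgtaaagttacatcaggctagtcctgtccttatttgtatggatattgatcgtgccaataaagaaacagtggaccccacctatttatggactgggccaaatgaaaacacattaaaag
Zpbp2 promoter: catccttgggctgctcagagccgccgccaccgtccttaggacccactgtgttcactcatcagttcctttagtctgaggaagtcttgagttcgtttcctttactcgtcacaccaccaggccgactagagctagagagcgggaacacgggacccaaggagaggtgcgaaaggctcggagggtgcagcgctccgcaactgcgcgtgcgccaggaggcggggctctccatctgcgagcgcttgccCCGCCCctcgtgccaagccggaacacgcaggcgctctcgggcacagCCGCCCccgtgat
Ormdl3 promoter: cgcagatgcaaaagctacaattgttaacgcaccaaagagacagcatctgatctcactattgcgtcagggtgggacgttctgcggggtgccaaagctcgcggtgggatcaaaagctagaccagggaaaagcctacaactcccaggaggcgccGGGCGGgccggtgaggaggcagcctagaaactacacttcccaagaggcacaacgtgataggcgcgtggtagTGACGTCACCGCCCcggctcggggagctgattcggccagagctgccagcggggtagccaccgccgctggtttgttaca

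Promoters were at hand for 4 of the 10 genes, Zpbp2, Ormdl3, Stard3 and Pgap3. GGGCGG was found in all 4, with 5 matches in Stard3 and 2 in each of the others, and in 35.9% of 32544 mouse promoters of the same length. TGACGTCA was found only in Ormdl3 among the 4, from base -28 relative to its RefSeq start, beside but not overlapping a GC box, and in 1.80% of all promoters. Among the other motifs searched on both strands, the E-box CACGTG (7.17% of all promoters) and the nuclear receptor element AGGTCA (16.2%) were in none of the 4. CCCTC, the core of the CTCF motif (66.1%), was in Zpbp2 and Stard3. These matches describe the letters of each window and carry no measure of binding.

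The libraries held 19981428 to 46796908 counted reads. Levels are given as CPM, the counts of a gene relative to a library size that the TMM method scales, and 3 counts, taken as the floor of detection, equal 0.0629 to 0.148 CPM. That floor covers counting error only. KO5 stood apart from the other libraries, with the most reads and with a summed level of 12 B cell markers of 1361 CPM, against 335.9 and 396.0 CPM in the other KO mice and 179.3 to 194.9 CPM in WT mice. Lung epithelial and endothelial markers were detected in every library. Sex was not given by the labels, and Xist was read in all 6 libraries (15033 to 47369 counts), whereas Ddx3y had 0 counts in 5 libraries and 9 in KO5. Nothing in the labels says that mice of a group came from separate litters, so the p-values measure the spread between these mice.

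Zpbp2, the targeted gene, was read 1, 2 and 2 times in WT4, WT5 and WT6, and 0 times in each KO mouse. All 6 libraries were at or under the floor of 3 counts, so Zpbp2 RNA was not detected above it at this depth. No fold change was computed, and the counts give only a weak check of the genotype labels. By RT-qPCR the study did measure Zpbp2 in WT lungs, at levels that changed over the day. Exons 4 to 8 are left in the KO allele, and reads from them would have been counted too.

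Among the 9 genes tested, 0 had an adjusted p-value of at most 0.05 (quasi-likelihood test of edgeR, adjusted by Benjamini-Hochberg over all genes tested), against 6.39% of the 17037 genes tested (3.72% higher and 2.67% lower in KO mice). With a further limit of 1.5 on the size of the log2 fold change, 0 of 9 passed, against 0.64% of all genes. At an unadjusted p under 0.05 there were 2 of 9, Ikzf3 and Grb7 (22.2%, against 25.5% of all genes), DESeq2 called 2 of the 9 that it gave an adjusted p (against 11% of 16811 genes), and edgeR's exact test called 1 of 9 (against 8.62% of 17037 genes). Log2 fold changes of KO over WT were positive for 5 genes and negative for 4, with a median of 0.01, near that of all genes (0.0030). In 7 of the 9 genes (77.8%) the log2 fold change was smaller than 0.2 in size, as it was in 61.8% of all genes. KO and WT values did not overlap in 4 of the 9 genes (Ikzf3, Med24, Grb7 and Ormdl3), and did not in 32.6% of all genes. None of these counts over 9 genes stood far from the share in all genes.

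**Figure D1:**
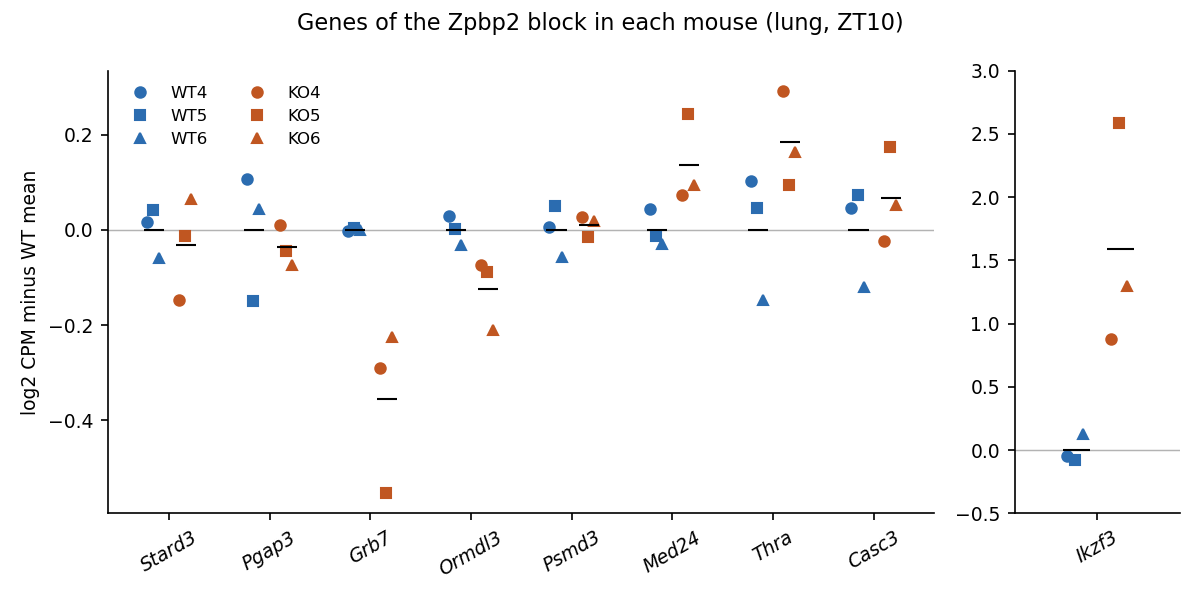
Level of each tested gene in each mouse, as log2 CPM minus the mean of the WT mice (vertical axis, log2 units; Ikzf3 on its own wider axis at the right), with genes in chromosomal order apart from Ikzf3. Blue symbols are WT4 to WT6, orange symbols KO4 to KO6, and black lines the group means. Ikzf3 stands higher and Grb7 lower in all 3 KO mice, with KO5 farthest out in both, while Stard3, Pgap3 and Psmd3 mix.

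Ormdl3 encodes a protein of the endoplasmic reticulum that inhibits serine palmitoyltransferase, the enzyme that starts sphingolipid synthesis. Its level was 47.1, 46.2 and 45.1 CPM in WT4, WT5 and WT6 and 43.9, 43.4 and 39.9 CPM in KO4, KO5 and KO6. Every KO mouse lay below every WT mouse, but the highest KO value was close to the lowest WT value. The WT mean was 46.1 ± 0.993 CPM (SD, n = 3) and the KO mean 42.4 ± 2.19 CPM (SD, n = 3), a change of -8.12%. On the log2 scale this was -0.12 (standard error 0.0567, 95% interval -0.26 to 0.01), with an edgeR adjusted p of 0.232, so the difference did not pass the test. As a fold, that interval runs from 0.838 to 1.01.

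Eef2, a translation elongation factor, was the reference gene of the RT-qPCR in the study, and Ormdl3 was therefore also expressed relative to it. The log2 ratio of Ormdl3 to Eef2 counts was -5.06, -5.02 and -5.06 in WT4, WT5 and WT6 and -5.21, -5.34 and -5.28 in KO4, KO5 and KO6. The difference of -0.23 was larger than that of Ormdl3 alone, with groups that did not overlap and a two-sided exact permutation p of 0.1, the smallest that 3 mice against 3 allow. By RT-qPCR over time points of the whole day, the study reported a small, statistically significant increase of Ormdl3 in KO lungs. That is the opposite direction to this ratio, which is from ZT10 alone. Eef2 itself averaged 1526 ± 37.8 CPM in WT and 1644 ± 103 CPM in KO lungs (SD, n = 3 each) (log2 fold change 0.11, edgeR adjusted p = 0.373). Leaving out 1 mouse at a time, the ratio differed by -0.26 to -0.20, and the log2 fold change of Ormdl3 by TMM by -0.15 to -0.08. A processed pseudogene of Ormdl3 on chromosome 4, Gm12538, is 97.0% identical over 462 aligned bases and had at most 2 counts in any library.

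The other genes of sphingolipid synthesis that were listed showed no called change. Of 8 listed genes for ORMDL proteins and serine palmitoyltransferase all were tested and 0 passed. Ormdl1 and Ormdl2, the paralogs of Ormdl3, had log2 fold changes of 0.09 (edgeR adjusted p = 0.580) and -0.11 (edgeR adjusted p = 0.492). Sptlc1, Sptlc2 and Sptssa, subunits of the enzyme, had values of 0.01, -0.08 and 0.06 on the same scale. The list's median was -0.10, and none of its genes besides Ormdl3 had groups that stood apart. Groups stood apart in 32.6% of all genes.

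Ikzf3 encodes Aiolos, a zinc finger transcription factor of the Ikaros family that mature B cells use. It measured 14.9, 14.7 and 16.9 CPM in WT4, WT5 and WT6 and 28.5, 93.2 and 38.1 CPM in KO4, KO5 and KO6. Each KO mouse lay above each WT mouse, and KO5 lay far above the other 2 KO mice, so that the KO mean of 53.3 ± 34.9 CPM (SD, n = 3) had a wide spread beside the WT mean of 15.5 ± 1.19 CPM (SD, n = 3). The fold was 3.47 (95% interval 1.75 to 6.87), or 1.79 on the log2 scale (standard error 0.419, edgeR adjusted p = 0.0516), which missed the threshold by little. Without KO5 the log2 fold change was smaller, 1.10, and its edgeR adjusted p was 0.0127, past the threshold, as it also was without KO4 (0.0285). Over the 14 other settings tried, that p ranged from 7.74e-04 to 0.182 and passed in 7.

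The summed B cell markers stood in the same order as Ikzf3 across the KO mice. All 12 of the listed markers had positive log2 fold changes, from 1.61 to 2.22 with a median of 1.89, although 0 passed the test. Groups did not overlap in any of the 12, as they did not in 32.6% of all genes. These 12 markers were read in the same 6 mice and are not separate pieces of evidence. Their mean log2 level relative to WT mice was 0.82, 2.85 and 1.12 in KO4, KO5 and KO6, above WT in all 3 KO mice and highest in KO5. Ms4a1, a surface protein of B cells, had a value of 2.06 (edgeR adjusted p = 0.0789). In bulk lung, more cells of a type and more RNA per cell cannot be told apart. Relative to the summed B cell markers, Ikzf3 stood at log2 ratios of -3.62, -3.61 and -3.53 in WT4, WT5 and WT6 and of -3.56, -3.87 and -3.38 in KO4, KO5 and KO6. These ratios overlapped, and differed by -0.01 on average (two-sided exact permutation p = 0.9). KO5 had the lowest ratio, and of the others KO4 lay inside the WT range and KO6 above it. Set against the summed T cell markers, whose 12 genes had a median value of 0.87 and 0 calls, Ikzf3 still differed by 0.88 (exact permutation p = 0.1). The defining T cell gene Cd3e had a value of 0.85 (edgeR adjusted p = 0.122). The summed T cell markers lay at 64.8 to 71.2 CPM in WT mice and at 71.0, 186.9 and 98.8 CPM in KO4, KO5 and KO6. Among 8 NK cell markers, with a median value of 0.74, 1 passed (Ncr1, higher in KO mice, against 3.72% of all genes). Among 6 plasma cell markers, with a median of 1.26, 0 passed. None of these markers was at 0 in any library.

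**Figure D2:**
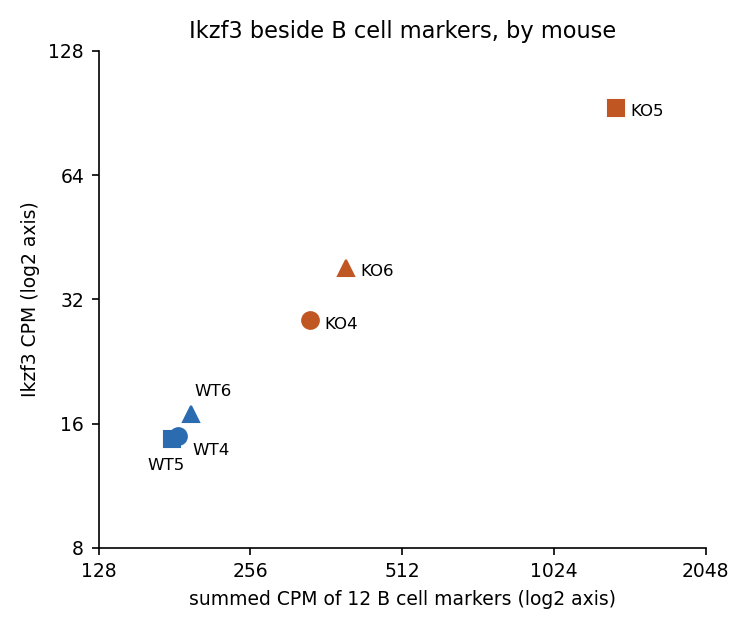
Ikzf3 in CPM (vertical log2 axis) against the summed CPM of 12 B cell markers (horizontal log2 axis), 1 point per mouse. The 3 WT mice sit together at 14.7 to 16.9 CPM of Ikzf3, and KO4, KO6 and KO5 follow in order on both axes.

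Of the 5 genes of the Ikaros family, 4 had positive values and 1 passed, higher in KO mice (against 3.72% of all genes). That gene was Ikzf1, which encodes Ikaros, a regulator of lymphocyte development. Ikzf1 averaged 33.5 ± 2.61 CPM in WT and 77.1 ± 31.8 CPM in KO lungs (SD, n = 3 each), with KO5 again the highest at 112.4 CPM (log2 fold change 1.21, standard error 0.266, edgeR adjusted p = 0.0445). Leaving out 1 mouse at a time, that p ran from 0.0196 to 0.168, and the call held without KO4 and without KO5 but not without WT4, WT5, WT6 or KO6. Ikzf2, which encodes Helios, had 0.53 (edgeR adjusted p = 0.0657), and Ikzf4 and Ikzf5 had 0.23 and -0.08. Ikzf1 lies on chromosome 11 too, but 86780 kb away.

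Across the 6 libraries, the tested genes whose log2 CPM followed Ikzf3 most closely were Map4k1, St6gal1, P2ry10, Gm4955 and Ifi203, with Pearson's r of 0.998 to 0.999. Those nearest to Ormdl3 were Cwc25, Dgcr8, Cd81, Dcaf7 and Ttl, with r of 0.981 to 0.997. These correlations describe 6 points from 2 groups, of which KO5 carries most of the range for Ikzf3, and have no test. Between neighbours in the block, Ikzf3 and Ormdl3 had r = -0.62, Ikzf3 and Med24 had r = 0.95, and Ikzf3 and Grb7 had r = -0.97.

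Grb7 encodes an adaptor protein with an SH2 domain that binds activated receptor tyrosine kinases such as ERBB2. WT mice were nearly identical, at 32.5, 32.6 and 32.5 CPM in WT4, WT5 and WT6, and KO mice stood at 26.6, 22.1 and 27.8 CPM in KO4, KO5 and KO6. All KO mice lay below all WT mice, KO5 the lowest. The change was -21.8%, or -0.35 on the log2 scale (standard error 0.0911, 95% interval -0.57 to -0.14), and the edgeR adjusted p of 0.0644 missed the threshold. That p ranged from 0.0197 to 0.192 over the 14 other settings and passed in 3, among them the fit without KO5 (0.0487).

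Epithelial markers leaned lower in the same mice, though none passed the test. All 10 lung epithelial markers had negative log2 fold changes, with a median of -0.21. Their sum was 44020 to 53360 CPM in WT mice and 34060 to 45090 CPM in KO mice, ranges that overlap. Most of it was Scgb1a1 and Sftpc, which averaged 27970 and 12840 CPM in WT mice. Weighted equally, the 10 markers had mean log2 levels relative to WT mice of -0.05, -0.04 and 0.09 in WT4, WT5 and WT6. In KO4, KO5 and KO6 these means were -0.09, -0.46 and -0.21, below all WT mice, KO4 by little. Grb7 relative to the summed markers differed by -0.11 (exact permutation p = 0.3), a ratio whose divisor is mostly those 2 genes. Relative to single epithelial genes, it differed by -0.18 for Cdh1 and -0.19 for Epcam, which encode adhesion proteins, with groups that did not overlap (exact permutation p = 0.1 for each). Relative to the keratin genes it differed by 0.13 for Krt8 (exact permutation p = 0.4), of the opposite sign, and by -0.15 for Krt18 (exact permutation p = 0.2), with groups that overlapped. Of 5 lung endothelial markers, 4 also had negative log2 fold changes, with a median of -0.13, and 1 was called lower in KO mice (against 2.67% of all genes). The part that epithelial RNA had in the lower Grb7 was not tested further.

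Of the 7 listed genes of the Grb7 adaptor family and the ERBB receptors, 2 were called lower and 0 higher in KO mice. Over all genes, 2.67% were called lower and 3.72% higher, and the list was not tested as a set. Grb10, a paralog of Grb7 that dampens insulin signalling, averaged 72.6 ± 4.79 CPM in WT and 54.5 ± 1.10 CPM in KO lungs (SD, n = 3 each) (log2 fold change -0.41, standard error 0.0592, edgeR adjusted p = 0.0186). Egfr, the receptor for epidermal growth factor, averaged 36.3 ± 4.76 CPM in WT and 26.9 ± 0.0927 CPM in KO lungs (SD, n = 3 each) (log2 fold change -0.43, standard error 0.0946, edgeR adjusted p = 0.0445). Leaving out 1 mouse at a time, the edgeR adjusted p of Grb10 ran from 0.0235 to 0.0933 and missed the threshold without WT5, WT6 or KO6, and that of Egfr ran from 0.0690 to 0.115 and missed it in all 6 fits. Both lie on chromosome 11, but 86510 kb and 81630 kb away from Zpbp2. Grb14 and Erbb3 had values of -0.15 (edgeR adjusted p = 0.402) and -0.22 (edgeR adjusted p = 0.138), and Erbb2, which sits beside Grb7, had -0.12 (edgeR adjusted p = 0.476).

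Stard3 and Pgap3, the farthest genes before Zpbp2, had KO and WT values that mixed. Stard3 places cholesterol on late endosomes, and it measured 51.2, 52.1 and 48.6 CPM in WT4, WT5 and WT6 and 45.7, 50.2 and 52.9 CPM in KO4, KO5 and KO6. The highest and the lowest of these mice were both KO. The log2 fold change of Stard3 was -0.03 (standard error 0.0668, 95% interval -0.19 to 0.13, edgeR adjusted p = 0.832). Pgap3, which helps to remodel the lipid of GPI anchors in the Golgi, measured 12.4, 10.4 and 11.9 CPM in WT4, WT5 and WT6 and 11.6, 11.2 and 10.96 CPM in KO4, KO5 and KO6. All KO values lay within the WT range. Its log2 fold change of -0.04 (standard error 0.0998, edgeR adjusted p = 0.842) had an interval of -0.28 to 0.19, the widest of the 9 after that of Ikzf3. The lists around them, 7 genes of START domain and sterol transfer and 5 tested genes of GPI anchor remodelling, held 0 called genes, and Stard3nl, the closest relative of Stard3, had -0.10 (edgeR adjusted p = 0.255).

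Psmd3, a subunit of the 19S regulatory particle that feeds proteins into the proteasome, had the smallest log2 fold change of the 9 genes. It measured 85.9, 88.4 and 82.2 CPM in WT4, WT5 and WT6 and 87.1, 84.5 and 86.6 CPM in KO4, KO5 and KO6, and every KO mouse lay inside the WT range. Its log2 fold change was 0.01 (standard error 0.0471, 95% interval -0.10 to 0.12, edgeR adjusted p = 0.929). The 18 listed genes of the 19S particle held 0 called genes, with 14 negative values and a median of -0.08. Psmd1 had -0.11 (edgeR adjusted p = 0.323).

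Med24 belongs to the Mediator complex, which links transcription factors to RNA polymerase II. It measured 34.5, 33.1 and 32.7 CPM in WT4, WT5 and WT6 and 35.2, 39.6 and 35.7 CPM in KO4, KO5 and KO6. All KO mice lay above all WT mice, KO4 by less than the WT mice differed among themselves. The change was 10.3%, or 0.14 on the log2 scale (standard error 0.0655, 95% interval -0.01 to 0.29, edgeR adjusted p = 0.232). Of the 33 Mediator genes listed 0 passed, with a median of 0.02, and Med1, a subunit encoded 357.8 kb from Zpbp2, had 0.17 (edgeR adjusted p = 0.111).

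Thra encodes the alpha receptor for thyroid hormone. It measured 97.3, 93.6 and 81.8 CPM in WT4, WT5 and WT6 and 111.1, 96.8 and 101.6 CPM in KO4, KO5 and KO6. KO4 and KO6 lay above the WT range and KO5 inside it. The log2 fold change was 0.18 (standard error 0.0817, 95% interval -0.01 to 0.37, edgeR adjusted p = 0.218). The end of Thra shares 263 bp of exon, 5.70% of its exon length, with Nr1d1 on the opposite strand, whose own value was -0.36 (edgeR adjusted p = 0.136), and reads from the shared stretch cannot be told apart if strand was not used in counting. Thrb, the beta receptor, had -0.02 (edgeR adjusted p = 0.899), and 0 of the 17 tested genes of thyroid hormone action passed.

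Casc3, a core protein of the exon junction complex that marks spliced RNA, measured 81.6, 83.3 and 72.8 CPM in WT4, WT5 and WT6 and 77.9, 89.2 and 82.0 CPM in KO4, KO5 and KO6. The groups overlapped, with KO5 the highest mouse and WT6 the lowest. Its log2 fold change was 0.07 (standard error 0.0738, 95% interval -0.10 to 0.24, edgeR adjusted p = 0.607). Of its partners, Eif4a3 and Magoh had 0.01 (edgeR adjusted p = 0.952) and -0.10 (edgeR adjusted p = 0.317). Rbm8a, which pairs with Magoh, was the only called gene of the 8 listed for the exon junction complex (2.67% of all genes were called lower). It fell from 64.6 ± 1.75 to 54.4 ± 2.01 CPM (SD, n = 3 each) (log2 fold change -0.25, standard error 0.0501, edgeR adjusted p = 0.0378). That call held without KO4 and was lost in the other 5 fits that left out 1 mouse, where the edgeR adjusted p reached 0.152.

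**Figure D3:**
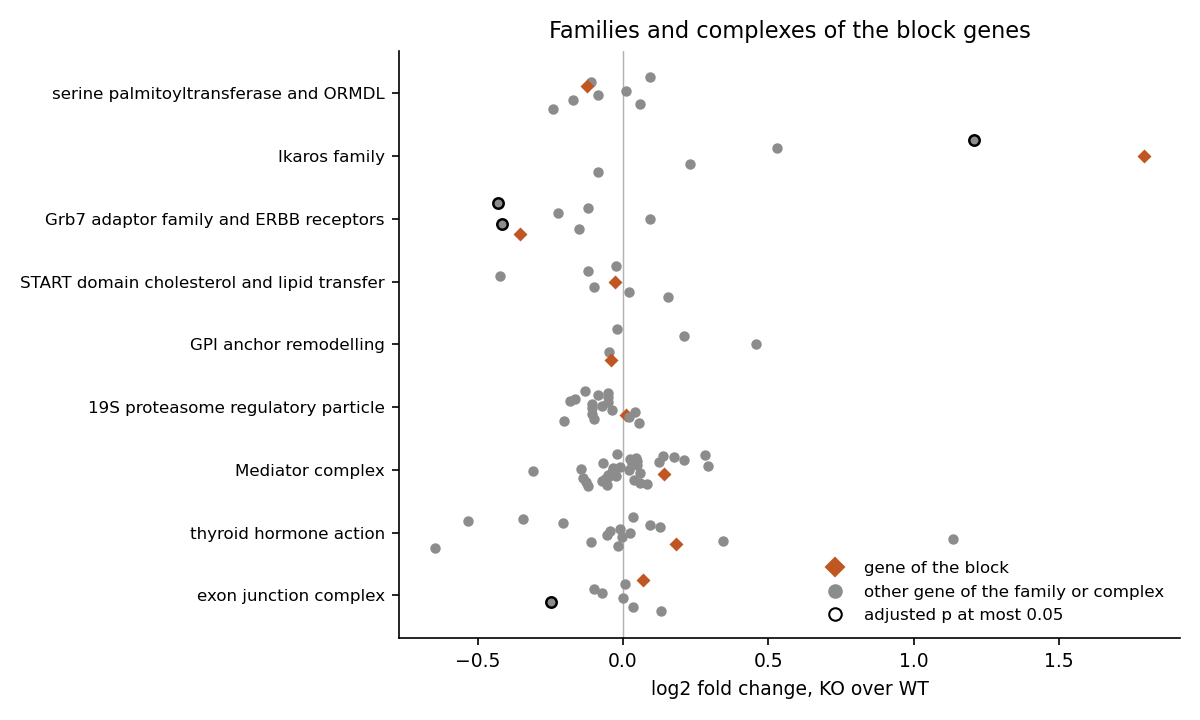
Log2 fold change, KO over WT (horizontal axis), of each tested gene in the 9 families or complexes to which the block genes belong (rows). Diamonds are the genes of the block, circles the other genes, and outlined circles have an adjusted p of at most 0.05. Ikzf1 is outlined at 1.21, Grb10 and Egfr at -0.41 and -0.43, and Rbm8a at -0.25. The Mediator genes lie on both sides of 0, and 14 of the 18 genes of the 19S particle lie below 0.

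Exon length here counts every base in an exon of any annotated transcript of a gene, and levels per length depend on that choice. Per kilobase of exon, Ormdl3 had the highest level of the 10 genes in WT lungs, at 21.1 ± 0.455 CPM per kb (SD, n = 3). Thra (19.7 ± 1.75), Casc3 (18.4 ± 1.31) and Psmd3 (17.2 ± 0.631) came next on this scale, and each of these neighbours in the order had ranges over mice that overlapped. Stard3 (14.2 ± 0.519), Grb7 (9.66 ± 0.0207), Med24 (5.12 ± 0.139), Pgap3 (3.57 ± 0.326), Ikzf3 (1.77 ± 0.136) and Zpbp2, under the floor, followed with no overlap between neighbours. In KO lungs Thra stood first at 22.4 ± 1.58 and Ormdl3 next at 19.4 ± 1.004 CPM per kb (SD, n = 3), and their ranges over mice did not overlap. Casc3 came close behind Ormdl3 there, at 19.3 ± 1.33 CPM per kb (SD, n = 3), with ranges that overlapped. Ikzf3, the ninth in WT lungs, was the seventh in KO lungs, at 6.08 ± 3.99 CPM per kb (SD, n = 3), above Med24 (5.64 ± 0.371) and Pgap3 (3.47 ± 0.105), although its range overlapped theirs.

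**Figure D4:**
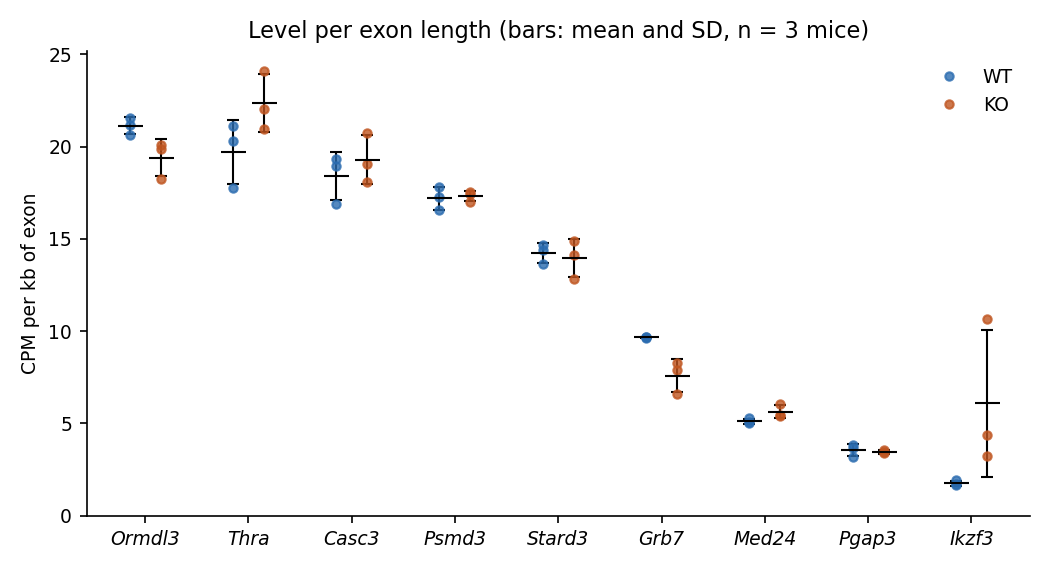
Level of the 9 tested genes in CPM per kb of exon (vertical axis), ordered by the WT mean, with points for the mice (blue WT, orange KO) and bars for the mean and SD of 3 mice. Levels run from 21.1 for Ormdl3 to 1.77 for Ikzf3 in WT mice, and Ikzf3 alone shows a KO spread that reaches over several neighbours.

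Of 36 listed genes from Fbxl20 to Smarce1, 28 were tested, 0 rose and 1 fell (3.57%, against 6.39% of all genes), with 18 positive and 10 negative values and a median of 0.04. The 1 called gene was Msl1, a subunit of a histone acetyltransferase complex, which lies 236.8 kb beyond Zpbp2 beside Casc3. It measured 185.0, 185.5 and 164.5 CPM in WT4, WT5 and WT6 and 145.9, 149.7 and 143.9 CPM in KO4, KO5 and KO6, with no overlap (log2 fold change -0.28, standard error 0.0613, edgeR adjusted p = 0.0431). The call was lost in all 6 fits that left out 1 mouse, with an edgeR adjusted p of 0.0598 to 0.164 and a log2 fold change of -0.34 to -0.26. Msl1 and Casc3 share 15 bp of exon on the same strand. Mien1, between Erbb2 and Grb7, had 0.03 (edgeR adjusted p = 0.797). Neurod2, Lrrc3c, Gsdma2, Gsdma and Gjd3 had at most 3 counts in every library, so that no difference could have been seen in them. Lrrc3c, Gsdma2 and Gsdma lie between Ormdl3 and Psmd3.

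Within 1 Mb on either side of Zpbp2, 104 genes of the table are annotated, 54 were tested, and 6 passed, 4 higher and 2 lower in KO mice (11.1%, against 6.39% of all genes). The 4 higher were B230217C12Rik (0.74), Arl5c (1.84), Krt222 (1.86) and Gm11940 (2.03 on the log2 scale), all farther from Zpbp2 than Casc3. In WT4 they had 39, 122, 23 and 4 counts in that order, so that Gm11940 was close to the floor there. Arl5c and Krt222 are also on the study's own list of changed genes at ZT10. The 2 lower were Msl1 and Gm12359 (-0.84), an antisense gene that shares 494 bp of exon with Casc3 on the opposite strand. Apart from Msl1, these called genes were named after their values were seen, and their fits with a mouse left out are not given here. The window's median was 0.07, with 36 positive values, 18 negative values and 22 genes whose groups did not overlap (40.7%, against 32.6% of all genes).

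**Figure D5:**
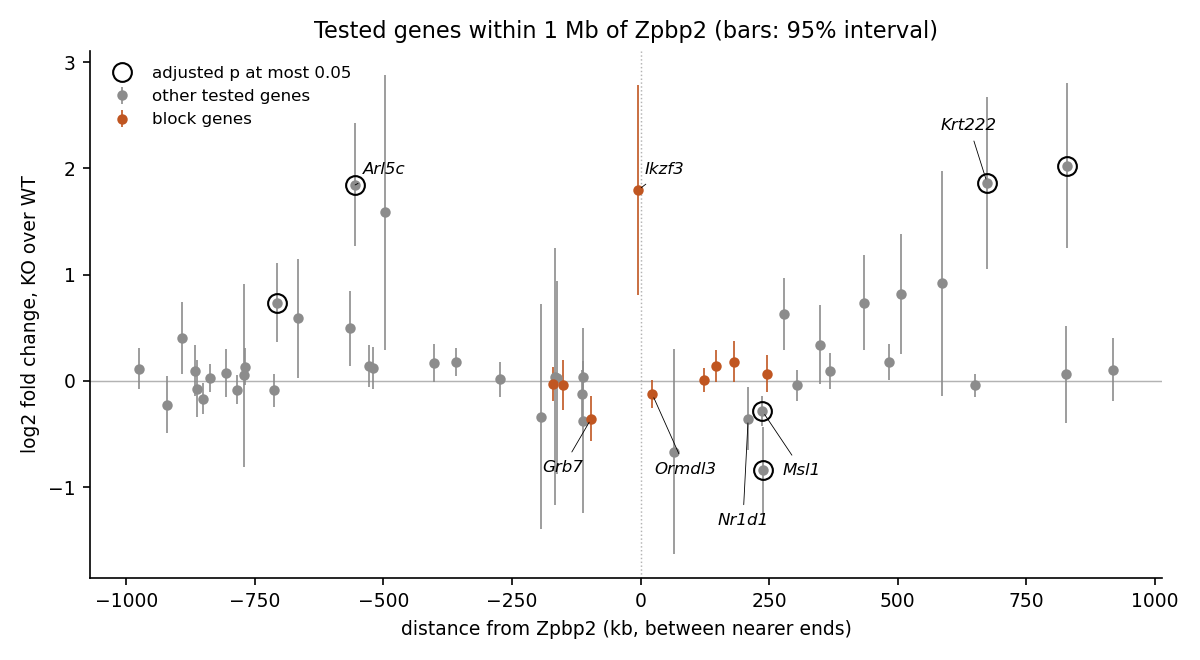
Log2 fold change, KO over WT (vertical axis), of the 54 tested genes within 1 Mb of Zpbp2 against their distance from it in kb between the nearer ends (horizontal axis, negative before Zpbp2). Bars are 95% intervals, orange points the genes of the block, and black rings mark an adjusted p of at most 0.05. The rings lie away from 0 kb, and Ikzf3 at 1.79 is the nearest gene with a large value.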

How the data were processed

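Lung RNA of 3 KO and 3 WT mice at ZT10 was measured by RNA-seq (TruSeq stranded mRNA libraries), 1 library per mouse. Per the study's methods and the submitters' processing notes, the authors trimmed and filtered the reads (Trimmomatic 0.36 is named), aligned them to GRCm38 with STAR 2.5.3a and counted them per gene with HTSeq 0.6.0. Picard 2.9.0 is also named. The deposited values are raw counts, whole numbers per Ensembl gene without normalization. The annotation release and the strand setting of the counting are not given in the sources used here. Among 110 genes that lie wholly inside exons of a single protein-coding gene on the opposite strand, 78 had reads, which together made 0.0842% of their hosts' reads.

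Genes were placed with GENCODE release 21 for the mouse (46574 of 47069 matched). KO and WT mice were compared in R 4.3.3 with edgeR 4.0.16 (glmQLFit and glmQLFTest, TMM, filterByExpr with a minimum count of 10 and a minimum total of 15, no covariate) and Benjamini-Hochberg adjustment over 17037 genes, at an adjusted p of at most 0.05. A standard error is the size of the log2 fold change divided by the square root of F, and 95% intervals use the fit's degrees of freedom. CPM in correlations and in the plot by mouse had a prior count of 2. Exact permutation tests over mice were two-sided. The scripts were tested on simulated data.

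The genes of the block and all lists were chosen with earlier results of these data known. Named were the genes of the block, Nr1d1, Erbb2, Mien1, called or undetected genes of the locus list, preset relatives of each gene and up to 3 called genes of each list, Eef2, markers of B and T cells and of sex, and the 5 genes most like Ormdl3 and Ikzf3. Pgap4 had no row under that symbol in the table. Alternatives were DESeq2 size factors, upper-quartile factors or total counts, other filters (none, or a minimum of 10 counts per library), DESeq2 1.42.0, edgeR's exact test, the ratio to Eef2, the replicate number as a block, and each mouse left out in turn. Permutation tests used SciPy 1.17.1 in Python 3.11.15, and plots Matplotlib 3.10.9.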

Additional observations from a re-analysis of the deposited data

How the results depend on the processing

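The 95% intervals given with each gene are the differences that these 6 mice leave possible, and Zpbp2 itself was not above the floor of 3 counts. The number of block genes called was 0 of 9 with TMM (1089 of 17037 over all genes) and 1 of 9 with upper-quartile factors (1116 of 17037). It was 2 of 10 without a filter (1401 of 28625) and 1 of 9 with at least 10 counts in every library (1125 of 15986). DESeq2 called 2 of 9 (1847 of 16811) and edgeR's exact test 1 of 9 (1468 of 17037). With each mouse left out in turn it was 0 to 2 of 9, with 1 without KO4 (1278 of 17504) and 2 without KO5 (933 of 17033). In each case the genes were Ikzf3 alone or Ikzf3 and Grb7. In the wider locus the count of 1 of 28 tested genes became 3 of 28 with upper-quartile factors, 4 of 33 without a filter, 3 of 27 with at least 10 counts in every library, 6 of 27 under DESeq2, 4 of 28 under edgeR's exact test, and 0 to 2 of 27 or 28 with each mouse left out. Over all genes tested, 1089 were called, against 1847 under DESeq2 and from 1 (without WT5) to 1278 (without KO4) with each mouse left out, with 63 without WT6, 117 without KO6 and 254 without WT4.

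Signs turned for Stard3, Pgap3, Psmd3 and Casc3, none of them called. Stard3 was at 0.0057 with total counts and ran from -0.076 to 0.024 (without KO4) with mice left out, and Pgap3 ran from -0.11 to 0.012 (without WT4). Psmd3 was at -0.0015 without a filter and ran from -0.021 (without WT6) to 0.033, with -9.41e-04 without KO4. As ratios to Eef2, Psmd3 was at -0.10 and Casc3 at -0.038. Left out in turn, mice moved Ormdl3 from -0.15 to -0.08 and its ratio to Eef2 from -0.26 to -0.20, and Ormdl3 kept its direction and missed the threshold in all 14 fits tried. No scaling moved the median of all genes beyond 0.04 on the log2 scale. The medians of B cell, T cell, NK cell, plasma cell and lung epithelial markers kept their direction under the 3 other scalings. That of the endothelial markers was not checked in this way. The replicate number as a block left 0 genes of the block called, 0 of the locus and 66 of all genes tested. Mice with the same number had deviations from their group means that correlated at -0.03, -0.15 and -0.02. For mice with different numbers the correlations ran from -0.23 to 0.26. These values show no sign of pairing, but deviations within a group of 3 are tied together, so the check cannot decide whether mice were paired.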

Other observations

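The RT-qPCR primers of the study were located in GENCODE transcripts, as a description of which parts of the block they read. The primers listed for Zpbp2 lie in exons 7 and 8 of Zpbp2-201 (chr11:98557521-98557540 and chr11:98558238-98558257), outside the deleted exons. The reverse primer listed for Ormdl3 has the same 20 bases as that for Zpbp2, and it matched Zpbp2 exon 8 and no transcript of Ormdl3. Whether the list gives the primer that was used, or another was used and mistyped there, cannot be told from the sources used here. The forward primer for Ormdl3 matched exon 3 of Ormdl3-201 (chr11:98583225-98583244) and, with no mismatch, the pseudogene Gm12538 on chromosome 4. The sequences are shown because of the shared one.
Zpbp2 forward: ttttcggaaacaagcacaca
Zpbp2 reverse: gacaggtgacatccacatcg
Ormdl3 forward: agactccagaccaaggcaaa
Ormdl3 reverse: gacaggtgacatccacatcg

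The reverse primer for Nr1d1 lies in exon 8 of Nr1d1-201 (chr11:98768251-98768270), inside the stretch that Nr1d1 shares with exon 10 of Thra-201 on the opposite strand. Whether any of these matches affected a measurement was not tested.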
